A study of Mus musculus with 13 samples.

Results

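The proteasome subunit genes of the mouse were followed in the frontal cortex of wild-type and 5XFAD mice. Genes were taken by symbol: a name of the form Psma to Psmg followed by a number, without Psmb8 and Psmb9, and with a summed expected count of at least 10 over all libraries. Of 48 symbols of that form, 46 remained, out of 55536 genes in the files. They comprise 17 genes of the 20S core, 17 of the 19S cap, 7 assembly chaperones, 4 activators and 1 inhibitor. The rule is meant to give constitutive subunits, but 3 of its genes are known as something else. Psmb10 encodes the remaining inducible peptidase of the immunoproteasome, Psmb11 a thymus subunit and Psma8 a testis subunit.

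RNA from the frontal cortex was sequenced in 13 libraries of 4 groups. The wild-type mice, of strain B6SJLF1/J, gave 4 libraries at 6 months and 3 at 11 months. The 5XFAD mice gave 3 libraries at each age. These transgenic mice carry mutated human genes, APP among them, driven by mouse Thy1 regulatory sequence, which is active mainly in neurons, and they serve as a model of amyloid build-up. The labels give no other allele, agent or treatment and do not say whether mice were pooled or littermates. Nothing states that libraries come from separate animals either, so each p-value is set against the scatter among these libraries, part of which may be technical.

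The proteasome degrades proteins that have been tagged with ubiquitin. Its core is a barrel of stacked rings: the outer alpha rings gate the entrance, and the inner beta rings hold the peptidases that cut. A cap sits on the barrel, recognises the ubiquitin chain, removes it, and unfolds the substrate with a ring of ATPases. Interferon replaces the 3 constitutive peptidases with inducible ones, which gives the immunoproteasome, and raises the PA28 activator, which opens the barrel without ubiquitin. In the brain the constitutive form is abundant in neurons, while inducible subunits are known mainly from microglia and other immune cells.

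Library totals ran from 23618296 to 26615776 counts, and no 2 libraries agreed within sampling noise. Thy1 stood at 725 ± 61.2 CPM (SD, n = 4; CPM are counts scaled to the library size) in wild type and 2772 ± 335 CPM (n = 3) in 5XFAD at 6 months. At 11 months the values were 577 ± 53.3 and 2820 ± 585 CPM (n = 3 each), so each library matched its genotype label. All 7 neuronal markers were detected in every library, and 6 striatal markers summed to between 267 and 2862 CPM. Wild-type replicate 1 at 6 months held 2974 CPM of 6 choroid plexus markers, against 5.25 to 33.4 CPM in the other libraries. The 3 wild-type libraries at 11 months differed widely among themselves in the proteasome genes, as described with the age comparison. By their Xist and Y-linked counts the libraries were 2 female and 2 male in wild type and 3 male in 5XFAD at 6 months. At 11 months they were 1 female and 2 male in wild type, and 2 female and 1 male in 5XFAD.

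Proteasome genes were expressed at widely different levels. On the per-length TPM scale (the authors' values, corrected for transcript length and library size) the members together took up between 0.334% and 0.511% of the transcripts of a library. The highest median over the 13 libraries was that of Psmb6, the caspase-like peptidase of the core, at 330.2 TPM, followed by the ATPase gene Psmc5 at 243 TPM and the beta ring gene Psmb4 at 236 TPM. Psmb5, the chymotrypsin-like peptidase, stood at 236 TPM and Psmb7, the trypsin-like peptidase, at 191 TPM. Activators were lower: Psme1 and Psme2, whose products form the PA28 ring, had medians of 58.4 and 57.1 TPM, the nuclear PA28 gene Psme3 38.3 TPM, and Psme4, the gene of the large activator PA200, 13.5 TPM. Assembly chaperones ran from 14.3 TPM for Psmd10 to 31.1 TPM for Psmg4, and the inhibitor gene Psmf1 stood at 28.8 TPM. Psmb10 had a median of 129.6 TPM, while Psma8 and Psmb11 had medians of 0.44 and 0.03 TPM. Psmb11 did not pass the filter on low counts, and the other 45 members were tested.

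Summed over each part of the particle, mean core, cap and chaperone levels were lower at 11 than at 6 months in both genotypes, by more than the SD of either group in 5XFAD. The 17 core genes summed to 2678 ± 76.2 TPM (SD, n = 4) in wild type and 2583 ± 74.9 TPM (n = 3) in 5XFAD at 6 months. At 11 months they summed to 2092 ± 468 and 2065 ± 122 TPM (n = 3 each). All 3 5XFAD libraries at 11 months, at 2204, 2011 and 1978 TPM, lay below every 6-month library. The wild-type libraries at 11 months were spread out, at 2597, 1674 and 2004 TPM. Replicate 1 lay just below the lowest wild-type library at 6 months, at 2620 TPM, and above 2 of the 3 younger 5XFAD libraries. In CPM scaled by TMM its core sum of 1371 lay further below the lowest 6-month value, 1504. Cap genes summed to 1853 ± 68.4 and 1755 ± 48.2 TPM at 6 months and to 1601 ± 240.1 and 1503 ± 48.8 TPM at 11 months, in wild type and 5XFAD in turn. Chaperone genes summed to 175 ± 4.32 and 161 ± 3.54 TPM, then to 145 ± 25.4 and 138 ± 5.36 TPM. Activator genes summed to 175 ± 12.2 and 173 ± 6.997 TPM, then to 159.5 ± 20.3 and 179.5 ± 13.1 TPM. The order of the genotypes depended on the scale. In TPM the core, cap and chaperone means were lower in 5XFAD at both ages, whereas in scaled CPM they were higher at both. In CPM the core sums were 1538 ± 41.4 in wild type and 1634 ± 57.3 in 5XFAD at 6 months, and 1174 ± 185 and 1271 ± 53.8 at 11 months. On either scale the means of these 3 parts were lower at the older age in both genotypes. Such sums over chosen genes were not tested. In RNA from whole tissue, fewer cells of a type and less RNA per cell cannot be told apart.

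**Figure D1:**
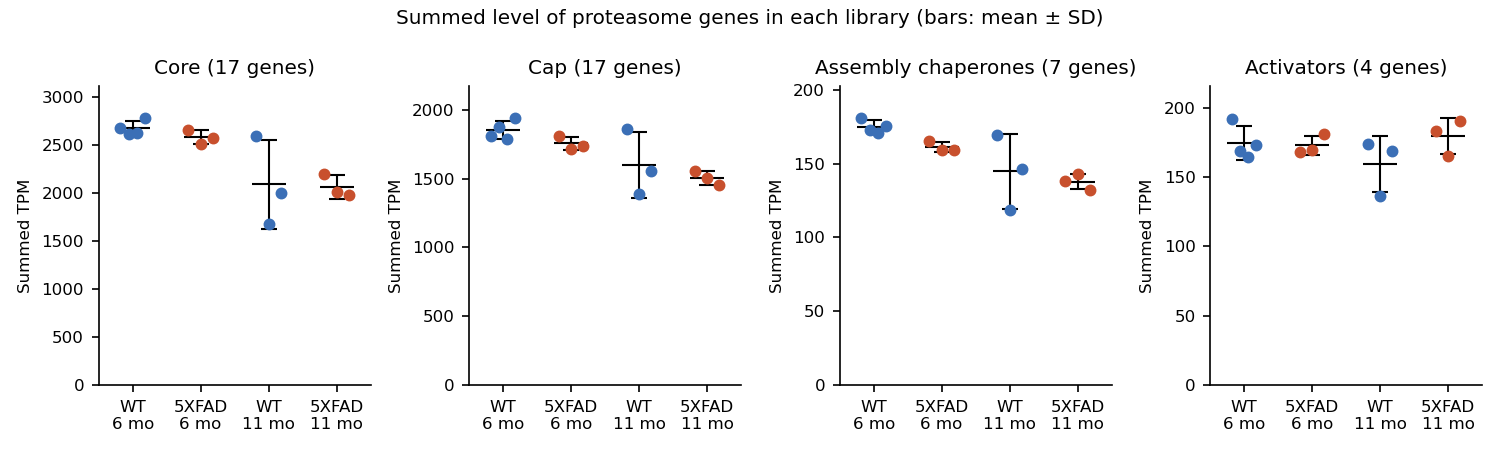
Summed TPM (y axis, from 0) of the core, cap, assembly chaperone and activator genes in each of the 13 libraries (points) by genotype and age (x axis, 6 or 11 months), with bars at the group mean ± SD. The 3 5XFAD libraries at 11 months lie below all 6-month libraries for core, cap and chaperones, and the 3 wild-type libraries at 11 months are spread out, with replicate 1 highest, within the range of the 7 younger libraries in those panels.

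The age comparison in wild type asked which subunit genes differ between 6 and 11 months without the transgenes. Of 45 members tested, 10 fell at 11 months and none rose in edgeR's quasi-likelihood test (adjusted p under 0.05), where 1.29% of all 17483 genes tested fell. The 10 were 8 of 16 core genes and 2 of 17 cap genes, and none of the 7 chaperones, 4 activators or the inhibitor passed. Without adjustment, 31 members were lower at p under 0.05, against 10.7% of all genes, and 42 of 45 estimates were below 0. The median log2 fold change was -0.29 over the members and 0.02 over all genes. It was -0.38 for the core, -0.27 for the cap, -0.23 for the chaperones and -0.13 for the activators. In CPM scaled by TMM, every 11-month wild-type library lay below every 6-month one in 25 members, against 7.96% of all genes. Fewer members separated the ages in TPM. Psmb7, for example, had 205 TPM in replicate 1 at 11 months, against 191 TPM in replicate 3 at 6 months.

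In 5XFAD, whose libraries are separate from those of wild type, 10 members fell with age and none rose, against 2.39% of all genes that fell. These were 7 of 16 core genes and 3 of 17 cap genes. Without adjustment 28 members were lower, against 10.6% of all genes, and 43 of 45 estimates were below 0. The median log2 fold change was -0.29 over the members and -0.0005 over all genes, with -0.35 for the core, -0.26 for the cap, -0.22 for the chaperones and -0.04 for the activators. In CPM scaled by TMM, every 11-month library was below every 6-month library in 34 members, against 17.3% of all genes. Both genotypes had 8 of these genes in common, which is 80% of either list: Psma3, Psma4, Psma7, Psmb1, Psmb4, Psmb6, Psmd4 and Psmd13. Over all genes tested 111 fell in both, which is 49.1% of those that fell in wild type and 26.6% of those that fell in 5XFAD. Psmb2 and Psmb5 passed in wild type alone, and Psma6 and Psmc1 in 5XFAD alone. Those differences between the genotypes were not past the threshold: the interaction of genotype and age passed for 0 of 45 members in edgeR and in DESeq2 and for 0 without adjustment, against 0.00572% of all genes in edgeR, 0.172% in DESeq2 and 3.96% without adjustment. Across the 45 members, the age differences in the 2 genotypes had a Pearson correlation of 0.755 (0.457 across all genes tested), as a description of points that share 1 model and 1 scaling.

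**Figure D2:**
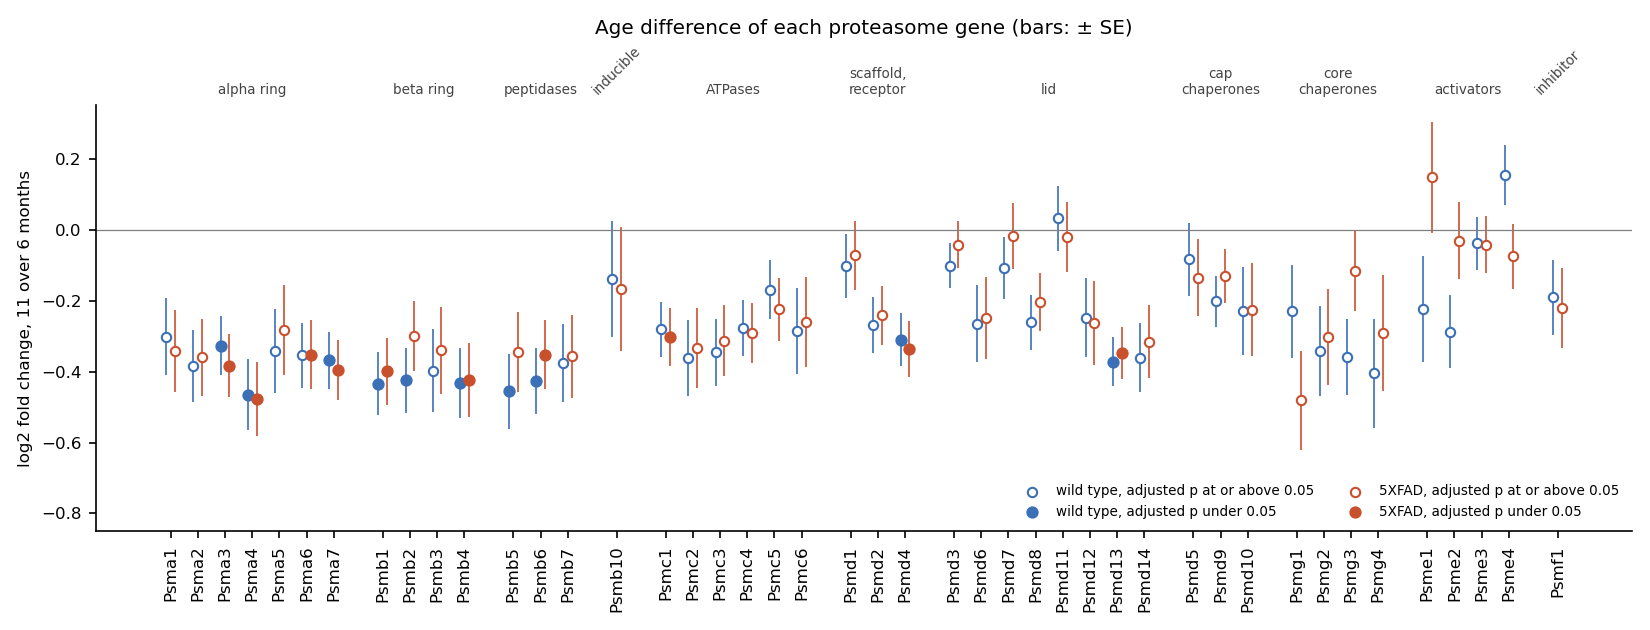
Log2 fold change from 6 to 11 months (y axis, ± SE) of 44 proteasome genes (x axis, grouped by role) in wild type (blue) and 5XFAD (red), with filled points for adjusted p under 0.05. Core and cap points lie mostly below 0 in both genotypes, with medians of -0.38 and -0.27 in wild type, and the activators lie nearer to 0. Psma8 is left out because its SE is about 0.6.

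The alpha ring, which forms the gate of the barrel, held 3 of the wild-type calls and 4 of those in 5XFAD among 8 tested genes. Levels are given here and below in CPM scaled by TMM, in the order of the replicate numbers, which have no meaning of their own. Psma4 had 99.1, 105, 99.1 and 106 CPM in wild type at 6 months and 85.4, 60.8 and 76.0 CPM at 11 months. In 5XFAD it had 119, 113 and 109.8 CPM at 6 months and 88.1, 80.0 and 77.6 CPM at 11 months. No library of one age overlapped the other age, and the log2 fold changes were -0.46 ± 0.10 (SE, adjusted p = 0.0309) in wild type and -0.48 ± 0.11 (adjusted p = 0.0196) in 5XFAD, the lowest estimate of any member in wild type. Psma7, encoding another alpha subunit, had 97.3, 96.5, 96.4 and 105 CPM in wild type at 6 months and 85.5, 68.3 and 75.7 CPM at 11 months. Its 5XFAD levels were 109, 110.2 and 105 CPM at 6 months and 86.2, 82.1 and 78.6 CPM at 11 months. The ages did not overlap here either, with changes of -0.37 ± 0.08 and -0.39 ± 0.08 on the log2 scale.

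Psma3 had 97.1, 102, 99.5 and 99.5 CPM in wild type at 6 months and 89.5, 69.2 and 79.5 CPM at 11 months. In 5XFAD the values were 114, 105 and 108 CPM, then 87.8, 80.7 and 82.4 CPM. Both changes, -0.33 ± 0.08 and -0.38 ± 0.09, passed. Psma6 stood at 64.5, 68.0, 69.2 and 76.0 CPM and then 57.7, 46.8 and 58.5 CPM in wild type, a change of -0.35 ± 0.09 that reached an adjusted p of 0.05 and did not pass. In 5XFAD it went from 81.2, 68.7 and 72.2 CPM to 58.3, 58.3 and 57.5 CPM and passed, with a change of -0.35 ± 0.10 (adjusted p = 0.0448). The same size of change thus stood on either side of the threshold. Psma1, Psma2 and Psma5 did not pass in either genotype, at -0.28 to -0.38. Psma8, at 0.0817 to 0.737 CPM, was too sparse to judge, with SEs of about 0.6.

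The beta ring genes without peptidase activity, Psmb1 to Psmb4, form the frame that holds the active sites, and 3 of 4 fell in wild type and 2 of 4 in 5XFAD. Psmb1 had 149, 151, 151 and 152 CPM in wild type at 6 months and 126, 96.6 and 113 CPM at 11 months. In 5XFAD it had 165, 153 and 151 CPM and then 125, 110.3 and 120.0 CPM. Its 4 wild-type libraries at 6 months lay close together, and the changes were -0.43 ± 0.09 and -0.40 ± 0.09. Psmb4 went from 157, 148, 149 and 160.4 CPM to 136, 95.3 and 110.2 CPM in wild type, and from 150.2, 150.3 and 156 CPM to 115, 114 and 112 CPM in 5XFAD. Its changes were -0.43 ± 0.10 and -0.42 ± 0.10, with no overlap of ages in either genotype. Psmb2 had 75.6, 67.7, 68.8 and 74.5 CPM and then 59.4, 45.6 and 55.3 CPM in wild type, where it passed (-0.42 ± 0.09). It had 70.0, 68.8 and 72.3 CPM and then 61.8, 52.9 and 56.9 CPM in 5XFAD, where it did not (-0.30 ± 0.10, adjusted p = 0.078).

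Psmb3 did not pass in either genotype. Its wild-type libraries, at 97.1, 79.9, 92.4 and 92.9 CPM and then 83.3, 56.5 and 66.5 CPM, overlapped between the ages in 1 value. Its 5XFAD libraries, at 106, 99.4 and 103 CPM and then 88.8, 73.4 and 80.9 CPM, did not.

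Of the 3 constitutive peptidases, Psmb6 passed in both genotypes. It had 149, 131, 149.7 and 143 CPM in wild type at 6 months and 122, 92.6 and 105 CPM at 11 months, a change of -0.43 ± 0.09. In 5XFAD it had 154, 144 and 154 CPM and then 124, 113 and 118 CPM, a change of -0.35 ± 0.10. Psmb5 had 128, 122, 121 and 133 CPM and then 112, 79.5 and 83.8 CPM in wild type (-0.46 ± 0.11, adjusted p = 0.0396). Its 5XFAD libraries had 136, 121 and 126 CPM and then 104, 94.1 and 103 CPM (-0.34 ± 0.11, adjusted p = 0.08). Psmb7 did not pass in either genotype, although its ages did not overlap: 129.8, 139.7, 129 and 145 CPM then 127, 84.8 and 103 CPM in wild type, and 153, 139 and 142 CPM then 118, 112 and 109 CPM in 5XFAD. Its changes were -0.37 ± 0.11 and -0.36 ± 0.12. Within each genotype, all 3 peptidase genes had lower scaled CPM in every 11-month library than in any 6-month one. In TPM this held in 5XFAD but not in wild type. There, replicate 1 at 11 months had 253, 332 and 205 TPM of Psmb5, Psmb6 and Psmb7. The lowest wild-type values at 6 months were 249.8, 330.2 and 191 TPM.

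In the cap, the calls were Psmd4, the receptor that binds ubiquitin chains, Psmd13 of the lid, and in 5XFAD the ATPase gene Psmc1. Psmd13 had the smallest adjusted p among the members in both age comparisons. It had 77.2, 82.8, 80.6 and 84.8 CPM and then 66.7, 58.4 and 63.6 CPM in wild type (-0.37 ± 0.07, adjusted p = 0.024). In 5XFAD it had 77.5, 77.8 and 82.4 CPM and then 59.9, 62.7 and 64.3 CPM (-0.35 ± 0.07, adjusted p = 0.0168). Its locus overlaps Sirt3 on the other strand, and the strand setting of the counting is not given, so reads of the pair may be mixed. Psmd4 went from 139.7, 135, 134 and 140.2 CPM to 124, 106 and 103 CPM in wild type and from 148, 151 and 148 CPM to 122, 114 and 118 CPM in 5XFAD. These were changes of -0.31 ± 0.07 and -0.33 ± 0.08. Psmc1 had 115, 134, 136 and 134 CPM and then 109, 102 and 110.0 CPM in wild type (-0.28 ± 0.08, adjusted p = 0.0558), and 135, 126 and 121 CPM then 99.5, 105 and 104 CPM in 5XFAD (-0.30 ± 0.08, adjusted p = 0.0426).

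The other ATPase genes, Psmc2 to Psmc6, did not pass, with estimates of -0.17 to -0.36. Psmc3 had 183, 185, 173 and 200.5 CPM and then 170.2, 134 and 134 CPM in wild type, and 199, 184 and 214 CPM then 159, 161 and 160.2 CPM in 5XFAD, with no overlap between ages. Lid genes differed among themselves. Psmd14, the deubiquitinase that removes the chain, stood at -0.36 ± 0.10 in wild type and -0.32 ± 0.10 in 5XFAD without passing, whereas Psmd11 stood at 0.03 ± 0.09 and -0.02 ± 0.10 and Psmd3 at -0.10 ± 0.06 and -0.04 ± 0.07. Psmd12 had 67.0, 65.7, 56.9 and 63.7 CPM then 60.4, 44.3 and 55.2 CPM in wild type, and 84.1, 67.1 and 70.4 CPM then 66.4, 59.3 and 59.0 CPM in 5XFAD. The ages overlapped in wild type and not in 5XFAD.

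None of the chaperones passed with age. Psmg1, which helps to assemble the alpha ring, had the lowest estimate of any member in 5XFAD, -0.48 ± 0.14, with an adjusted p of 0.053, and stood at -0.23 ± 0.13 in wild type. Psmg3 had 14.5, 13.6, 14.7 and 15.6 CPM then 12.6, 11.2 and 10.2 CPM in wild type, without overlap. In 5XFAD it had 13.5, 13.1 and 15.7 CPM then 12.1, 13.5 and 13.4 CPM, with overlap. Psmd10, a chaperone of the ATPase ring, had 12.8, 15.3, 12.3 and 13.8 CPM then 11.95, 9.69 and 13.03 CPM in wild type. Its 5XFAD levels were 13.5, 13.1 and 14.8 CPM then 12.2, 12.8 and 10.5 CPM, lower in every older library. Psmf1, the gene of the inhibitor PI31, had 39.8, 44.2, 39.3 and 45.8 CPM then 43.0, 35.0 and 33.1 CPM in wild type and 42.7, 42.3 and 52.7 CPM then 39.4, 40.4 and 38.4 CPM in 5XFAD. Its estimates of -0.19 ± 0.11 and -0.22 ± 0.11 did not pass.

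Proteasome transcripts are short, and the libraries differed in how their counts depended on length. The tested members had a median transcript length of 1338 bases, against 2454 bases over all genes tested, and 40 of 45 were below that median. The length trend of a library is the slope of its log2 levels, relative to the mean of all libraries, per doubling of transcript length. It ran from -0.0549 to 0.0123 in wild type and from -0.0949 to -0.0564 in 5XFAD at 6 months. At 11 months it ran from 0.0225 to 0.1365 and from 0.0038 to 0.0494, so within each genotype every 11-month library lay above every 6-month one. With a per-library offset for length, 0 members fell in wild type (12 of all genes, 0.0686%) and 1, Psmb1, fell in 5XFAD (0.755% of all genes). The median over the members was then -0.17 in wild type and -0.15 in 5XFAD, and that of the core -0.21 and -0.19. That of the cap was -0.16 and -0.19, that of the chaperones -0.16 and -0.11, and that of the activators -0.05 and 0.06. With the offset, core and cap thus had the same median in 5XFAD and lay closer together in wild type than without it.

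The age calls also depended on single libraries. The median log2 deviation of the members from the mean of all libraries lay between 0.062 and 0.141 in the wild-type libraries at 6 months, and between 0.117 and 0.200 in those of 5XFAD. In wild type at 11 months it was -0.0456, -0.4123 and -0.1925, and in 5XFAD it lay between -0.113 and -0.078. Without wild-type replicate 1 at 11 months, 25 members fell in wild type (5.16% of all genes) and 19 in 5XFAD (3.5% of all genes). Without wild-type replicate 2 of that age 0 fell in wild type (0.0% of all genes) and 19 in 5XFAD (3.96%), and without replicate 3, 7 (1.97%) and 12 (3.23%). Without replicate 1, 2, 3 or 4 of wild type at 6 months, of which replicate 1 held choroid plexus markers, 1, 0, 6 and 0 fell in wild type (0.109%, 0.063%, 0.539% and 0.0% of all genes). In 5XFAD 8, 7, 8 and 7 then fell (2.03%, 1.84%, 2.11% and 1.57%). Without replicate 1, 2 or 3 of 5XFAD at 6 months, 6, 2 and 6 fell in wild type (0.498%, 0.223% and 0.459%) and 0, 0 and 2 in 5XFAD (0.14%, 0.251% and 0.716%). Without replicate 1, 2 or 3 of 5XFAD at 11 months, 6, 8 and 6 fell in wild type (0.432%, 0.739% and 0.42%) and 4, 2 and 0 in 5XFAD (0.661%, 0.94% and 0.0505%). Calls over all genes thus fell in number together with those of the members in the fits where few or no members passed. With only the libraries of the groups compared, 0 passed in wild type (0.00592% of all genes) and 24 in 5XFAD (6.62%), and with DESeq2 the counts were 22 (4.7% of all genes) and 15 (4.03%).

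**Figure D3:**
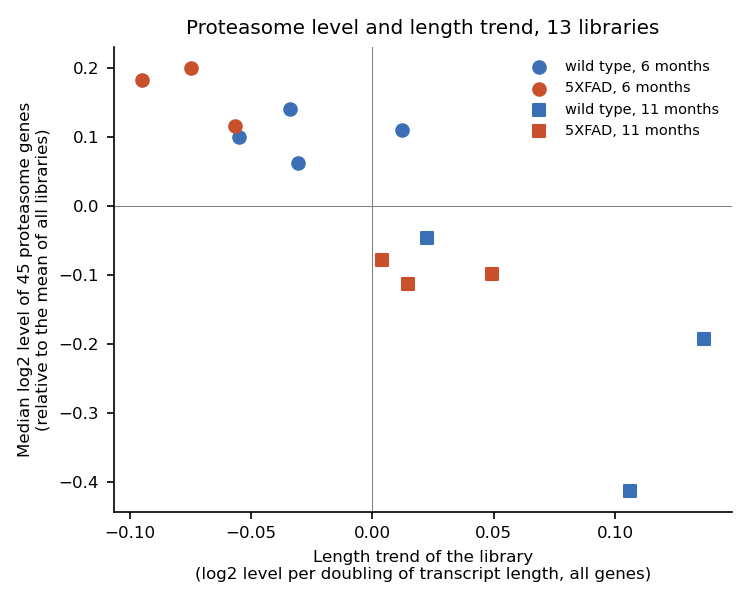
Median log2 level of the 45 tested proteasome genes in each library (y axis, relative to the mean of all libraries) against the length trend of that library over all genes (x axis, log2 level per doubling of transcript length). The 7 libraries at 6 months (circles) lie above 0 on the y axis and the 6 at 11 months (squares) below it, and the lowest points, at -0.4123 and -0.1925, have the highest trends.

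Other cell markers moved with age as well. Of 5 endothelial markers, 5 rose with age in wild type and 4 in 5XFAD, against 2.42% and 4.84% of all genes. At 6 months they summed to 83.5 to 96.7 CPM in wild-type libraries and to 68.9 to 75.3 CPM in those of 5XFAD, and at 11 months to 127 to 213 and 108 to 137 CPM. Of 6 astrocyte markers, 1 rose in wild type and 4 in 5XFAD, with sums of 1889 to 2031 and 2403 to 2646 CPM at 6 months, and 2251 to 3608 and 3874 to 4602 CPM at 11 months. None of 7 neuronal markers passed. Their sums were 5909 to 8022 CPM in wild type and 7314 to 8133 CPM in 5XFAD at 6 months, and 5181 to 7248 and 6409 to 6826 CPM at 11 months. Of 6 striatal markers 0 passed with age, with median log2 fold changes of -0.89 in wild type and -1.26 in 5XFAD. Striatal sums were 1165 to 2862 CPM in wild type and 540 to 1682 CPM in 5XFAD at 6 months. At 11 months they were 267 to 2270 and 279 to 711 CPM, so the share of striatal transcripts varied between libraries and groups. The mitochondrial share ran from 8.38% to 8.88% and from 9.94% to 9.99% at 6 months, and from 7.89% to 11.4% and from 10.1% to 11.3% at 11 months. The part of these in the age differences of the proteasome genes was not tested.

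The genotype comparisons asked how 5XFAD differs from wild type at the same age. At 6 months every wild-type library has a lower number in its title than any 5XFAD library. What these numbers stand for is not given, so genotype cannot be separated from it at that age. At 6 months 0 of 45 members passed in edgeR, in DESeq2 or with limma on TPM, against 1.32%, 2.2% and 0.995% of all genes in turn. Without adjustment 1 member passed, against 9.09% of all genes: the lid gene Psmd3, at -0.14 ± 0.06 with an adjusted p of 0.540. The median was 0.08 over the members and -0.01 over all genes, and 31 of 45 estimates were above 0. In 8 members every 5XFAD library lay above every wild-type library, against 6.97% of all genes, and in 1 below, against 5.07%. The SEs of 44 members, Psma8 apart, ran from 0.063 to 0.163.

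At 11 months 1 of 45 members was higher in 5XFAD, against 3.8% of all genes, and none was lower. That gene was Psme1. Without adjustment 3 members passed, all of them activators, against 15.8% of all genes. The groups did not overlap in 2 members that were higher in 5XFAD, against 10.4% of all genes, and in 2 that were lower, against 8.76%. The median over the members was 0.10, against -0.03 over all genes. It was 0.13 for the core, 0.08 for the cap, 0.03 for the chaperones and 0.16 for the activators. On the TPM scale the medians over all genes shifted to -0.11 at 6 months and -0.12 at 11 months, and those of the members to -0.06 and -0.03. The members were thus above the shift of all genes under either scaling, but the sign of their median was not stable. The length trend of every 5XFAD library lay below that of every wild-type library at 6 months, and the genotypes overlapped in it at 11 months. With the length offset the medians of the members were 0.04 at 6 months and 0.05 at 11 months, against -0.01 over all genes at both ages. The part of length in the genotype differences was not tested. The core gene with the highest estimate, other than Psma8, was Psmb3, at 0.24 ± 0.12 (adjusted p = 0.39). In the cap it was Psmd12, at 0.21 ± 0.12 (adjusted p = 0.439).

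**Figure D4:**
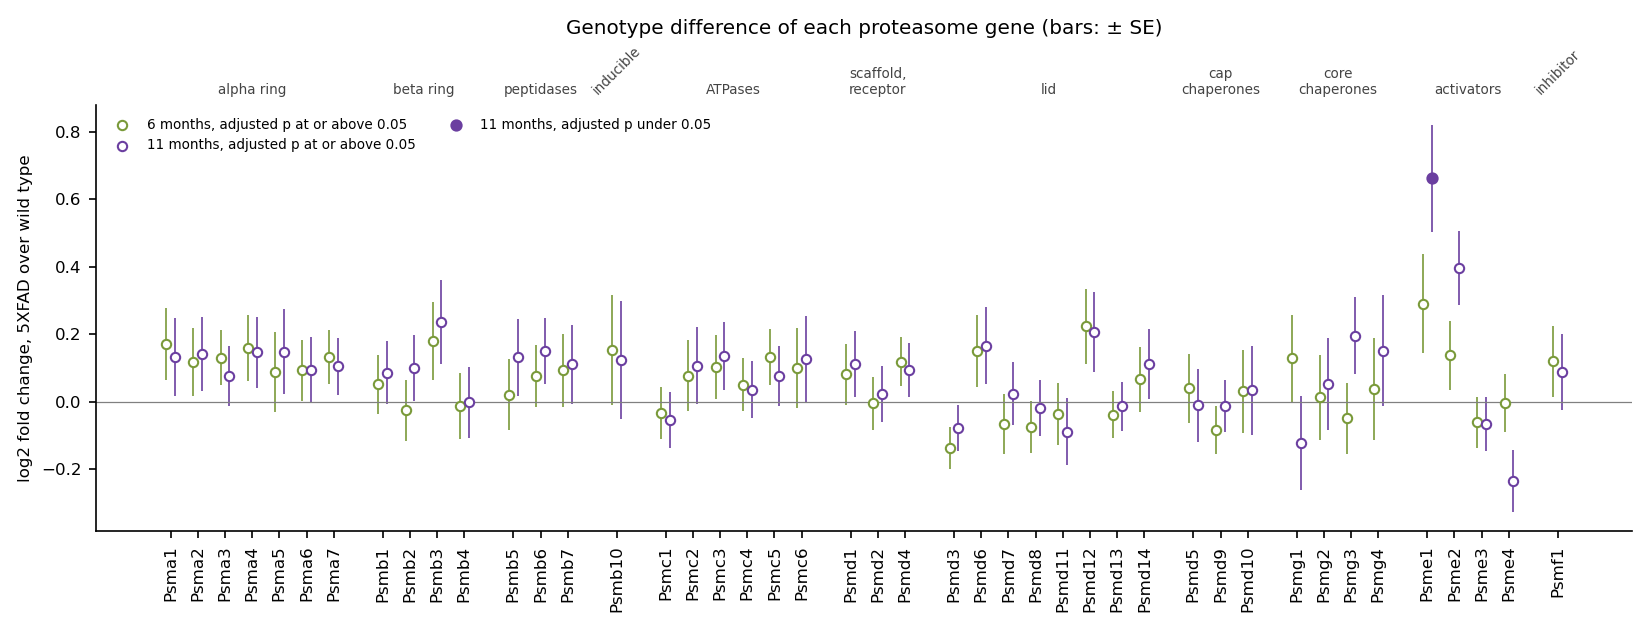
Log2 fold change of 5XFAD over wild type (y axis, ± SE) of 44 proteasome genes (x axis, grouped by role) at 6 months (green) and 11 months (purple), with a filled point for adjusted p under 0.05. Only Psme1 at 11 months is filled, at 0.66, and Psme2 beside it lies at 0.39.

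Psme1 encodes the alpha and Psme2 the beta subunit of PA28, and their genes are neighbours on chromosome 14 of GRCm38 (55578123 to 55581529 on the plus strand and 55587441 to 55591113 on the minus strand). Psme1 had 31.1, 24.8 and 31.9 CPM in wild type and 47.7, 38.0 and 53.2 CPM in 5XFAD at 11 months. The groups did not overlap, and the log2 fold change was 0.66 ± 0.16 (edgeR, adjusted p = 0.0288). At 6 months it had 42.4, 32.2, 27.3 and 34.8 CPM in wild type and 41.4, 38.9 and 44.996 CPM in 5XFAD, where 1 wild-type library, the one with choroid plexus markers, lay within the 5XFAD range (0.29 ± 0.15, adjusted p = 0.595). The difference between the ages, 0.37 ± 0.22, did not pass (unadjusted p = 0.109). The call at 11 months was kept in 16 of 22 alternatives, with log2 fold changes of 0.50 to 0.78 throughout. It was lost without 5XFAD replicate 1 (adjusted p = 0.102) or 3 (0.162), without wild-type replicate 1 (0.0572) or 2 (0.0986), with only the groups of that age (0.0712), and with limma on TPM (0.0976). Emc9 overlaps Psme1 on the other strand, so reads of the pair may be mixed.

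Psme2 had 22.5, 21.3 and 24.4 CPM in wild type and 29.1, 26.57 and 33.9 CPM in 5XFAD at 11 months. Again the groups did not overlap, and the estimate was 0.39 ± 0.11 with an adjusted p of 0.0623 in edgeR. DESeq2 called it together with Psme1, 2 members in all against 6.45% of all genes. At 6 months the levels were 31.5, 24.9, 27.3 and 27.2 CPM in wild type and 28.6, 30.5 and 32.4 CPM in 5XFAD, with overlap (0.14 ± 0.10). The related gene Psme2b, with 529 counts over all libraries, could share reads with Psme2. On the TPM scale the ratio of Psme1 to Psme2 was 0.940 ± 0.147 and 1.05 ± 0.063 at 6 months and 1.01 ± 0.070 and 1.22 ± 0.086 at 11 months, in wild type and 5XFAD in turn. The 3 ratios of 5XFAD at 11 months, 1.30, 1.13 and 1.23, lay above the 3 wild-type ratios of that age, 1.08, 0.946 and 0.996.

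The other activators did not follow. Psme3 had 70.5, 81.5, 71.7 and 78.0 CPM in wild type and 71.7, 71.0 and 74.2 CPM in 5XFAD at 6 months, and 74.8, 67.7 and 78.1 against 69.0, 68.5 and 73.3 CPM at 11 months. The groups overlapped at both ages. Psme4 had 53.7, 55.3, 63.5 and 52.0 CPM against 54.5, 57.8 and 55.6 CPM at 6 months, and 64.6, 67.0 and 56.0 against 55.2, 53.9 and 50.4 CPM at 11 months. At 11 months every 5XFAD library was below every wild-type one, at -0.23 ± 0.09 with an adjusted p of 0.21, which did not pass.

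The numbers in the titles of the 11-month libraries fall into a lower and a higher series, each with both genotypes, and the labels do not say what they stand for. The lower series holds wild-type replicate 1 and 5XFAD replicates 1 and 2, and the higher one wild-type replicates 2 and 3 and 5XFAD replicate 3. For Psme1 the 5XFAD libraries were higher in either series: 31.1 CPM against 47.7 and 38.0 CPM, and 24.8 and 31.9 CPM against 53.2 CPM. For the median deviation over the members, by contrast, wild type was the higher at -0.0456 against -0.0784 and -0.0979 in the first, and the lower at -0.4123 and -0.1925 against -0.1128 in the second. In a fit with the series as a term, added after the data were seen, 2 members were higher in 5XFAD at 11 months, against 4.42% of all genes called. These were Psme1 (0.69, adjusted p = 0.0364) and Psme2 (0.44, adjusted p = 0.038). The interaction of genotype and age passed for 0 members in that fit, against 0.0114% of all genes. At the younger age every wild-type library has a lower title number than any 5XFAD library. Genotype and title number therefore cannot be separated there, and the interaction, which draws on that comparison, shares this limit.

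The promoters of Psme1 and Psme2 are printed because these 2 genes had the smallest p of all members between genotypes at 11 months, and that of Psma7 for contrast, as a core gene that fell with age in both genotypes. Psme2 and Psma7 were chosen after their values were seen. Each window is 300 bases from RefSeq on GRCm38.p6, 250 before to 50 after an annotated start, 5′ to 3′ on the gene's strand, with capitals at matches to any motif searched.
Psme1 (chr14:55578244-55578543, plus strand): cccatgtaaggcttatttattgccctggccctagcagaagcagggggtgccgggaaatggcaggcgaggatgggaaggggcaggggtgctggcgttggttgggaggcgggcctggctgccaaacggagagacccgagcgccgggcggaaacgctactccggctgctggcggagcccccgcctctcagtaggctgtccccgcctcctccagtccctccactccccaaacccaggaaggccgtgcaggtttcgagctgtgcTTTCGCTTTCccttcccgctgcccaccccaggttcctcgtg
Psme2 (chr14:55590972-55591271, minus strand): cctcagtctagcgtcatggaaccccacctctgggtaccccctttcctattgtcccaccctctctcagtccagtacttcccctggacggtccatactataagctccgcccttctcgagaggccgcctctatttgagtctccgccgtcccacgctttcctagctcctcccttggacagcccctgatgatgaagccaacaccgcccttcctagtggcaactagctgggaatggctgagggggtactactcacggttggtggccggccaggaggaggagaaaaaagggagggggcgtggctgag
Psma7 (chr2:180042415-180042714, minus strand): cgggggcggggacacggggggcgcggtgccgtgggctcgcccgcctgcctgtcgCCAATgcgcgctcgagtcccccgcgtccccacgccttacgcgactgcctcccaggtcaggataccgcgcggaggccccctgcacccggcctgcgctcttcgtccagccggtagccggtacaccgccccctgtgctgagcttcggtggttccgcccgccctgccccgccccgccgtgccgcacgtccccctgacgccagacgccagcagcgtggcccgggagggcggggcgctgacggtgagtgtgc
The 4 motifs were searched on both strands. The capitals of Psme1 are a reverse match to the core of the interferon-stimulated response element, GAAANNGAAA, from base 10 to base 19 after the start. The capitals of Psma7 are a CCAAT box, from base -196 to base -192. Psme2 has 2 windows, 1 of which is printed, and neither held any of the motifs.

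Windows were found for 38 of the 46 members, 41 in all. The interferon core was in 5 of them (12.2%: Psmb3, Psmd4, Psmd9, Psme1 and Psmg4), against 3.43% of all 32817 windows. The antioxidant response element core, TGACNNNGC, bound by NRF1 and NRF2, was in 6 (14.6%), among them those of Psmb5, Psmb6 and Psmd12, against 12.4%. The STAT site TTCNNNGAA was in 2 (4.88%), against 8.29%, and CCAAT in 13 (31.7%), against 37.4%. A match is only a run of letters in a window. Of the 5 genes with the interferon core, Psme1 alone was called between genotypes, and Psmd4 fell with age in both.

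The inducible peptidases were set beside the constitutive ones they replace. Psmb8, which takes the place of Psmb5, is outside the chosen genes and had 4.05, 4.59, 4.34 and 3.92 CPM in wild type and 7.47, 11.0 and 9.21 CPM in 5XFAD at 6 months. At 11 months it had 4.66, 5.57 and 3.83 CPM and 15.3, 14.4 and 19.95 CPM. It was higher in 5XFAD at both ages without overlap, by 1.13 ± 0.17 (adjusted p = 0.00243) and 1.82 ± 0.18 (adjusted p = 3.08e-05) on the log2 scale. Psmb9, which takes the place of Psmb6, had 2.05, 1.87, 2.68 and 1.06 CPM against 2.78, 3.21 and 3.38 CPM at 6 months (0.70 ± 0.29, adjusted p = 0.474). At 11 months it had 1.95, 2.50 and 1.79 CPM against 6.68, 3.87 and 7.71 CPM (1.54 ± 0.31, adjusted p = 0.00868). It overlaps Tap1 on the other strand.

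Psmb10, the inducible counterpart of Psmb7, did not share that pattern. It had 47.5, 46.7, 47.3 and 52.6 CPM in wild type and 45.8, 53.3 and 62.8 CPM in 5XFAD at 6 months. At 11 months it had 55.2, 47.6 and 29.6 CPM against 48.4, 46.9 and 48.9 CPM. The groups overlapped at both ages, and the estimates were 0.15 ± 0.16 (adjusted p = 0.858) and 0.12 ± 0.18 (adjusted p = 0.797). An antisense gene, Gm16156, overlaps it.

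Per length, the inducible genes differed in how they stood to their partners. The TPM ratio of Psmb8 to Psmb5 was 0.0264 ± 0.0028 in wild type and 0.0572 ± 0.012 in 5XFAD at 6 months, and 0.0425 ± 0.012 and 0.136 ± 0.020 at 11 months. That of Psmb9 to Psmb6 was 0.00637 ± 0.0020 and 0.0105 ± 0.0017, then 0.0105 ± 0.0035 and 0.0275 ± 0.011. That of Psmb10 to Psmb7 was 0.696 ± 0.049 and 0.733 ± 0.140, then 0.805 ± 0.284 and 0.747 ± 0.063. For Psmb8 the highest wild-type ratio at 11 months was 0.0560 and the lowest 5XFAD ratio 0.120. In every group Psmb10 transcripts stood in a far higher ratio to their partner than the other inducible genes did.

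**Figure D5:**
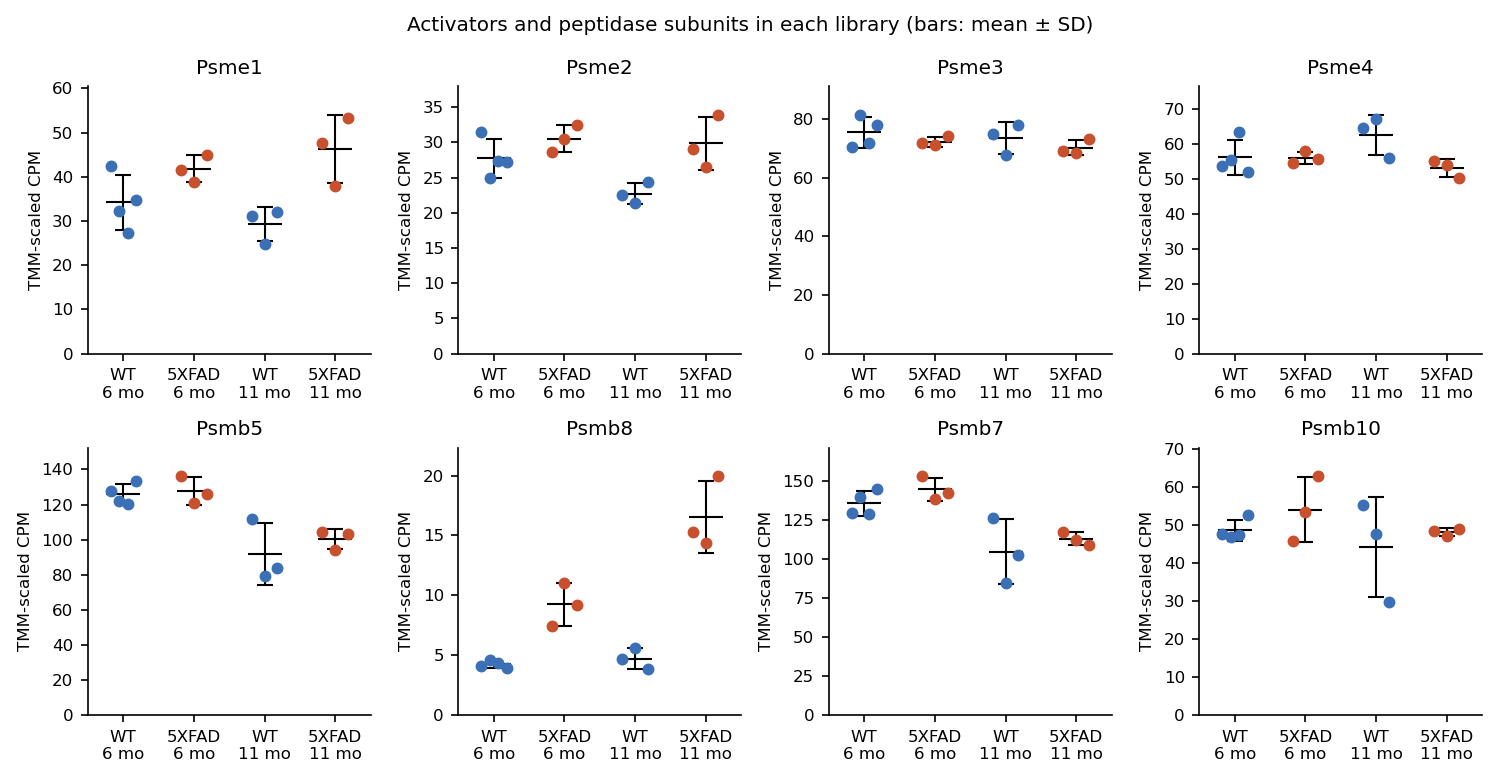
TMM-scaled CPM (y axes, from 0) of the 4 activator genes and of 2 constitutive peptidase genes with their inducible counterparts, in each library (points) by genotype and age (x axis, 6 or 11 months), with bars at the mean ± SD. At 11 months Psme1, Psme2 and Psmb8 are higher in every 5XFAD library than in any wild-type one, and Psme4 is lower. At 6 months only Psmb8 separates the genotypes, and Psme3 and Psmb10 do so at neither age.

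Microglial markers moved with genotype beside Psme1, Psmb8 and Psmb9. Of 7 markers, 5 were higher in 5XFAD at 6 months and 6 at 11 months, against 1.3% and 3.8% of all genes. At 6 months the 7 markers summed to between 299 and 311 CPM in wild-type libraries, against 613 to 673 CPM in those of 5XFAD. The sums at 11 months lay at 312 to 532 and 1121 to 1511 CPM. None of the 7 was at 0 in any library. The part of these cells in the differences of Psme1 was not tested.

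Genes that work with the proteasome were examined from lists. Of 11 measured genes of associated proteins, 0 passed in either genotype comparison and 0 with age in wild type. In 5XFAD 1 fell with age, against 2.39% of all genes. It was Sem1, the gene of a small lid subunit, whose name the rule does not match (-0.47 ± 0.11, edgeR, adjusted p = 0.0216). In wild type Sem1 stood at -0.34 ± 0.10 (adjusted p = 0.0648). Of 16 genes of ubiquitin and substrate delivery, 0 passed between genotypes. With age 1 fell in each genotype, against 1.29% of all genes in wild type and 2.39% in 5XFAD. Both genes are sources of ubiquitin. These were the polyubiquitin gene Ubb in wild type (-0.39 ± 0.09, adjusted p = 0.0432) and Rps27a, a ubiquitin fused to a ribosomal protein, in 5XFAD (-0.34 ± 0.08, adjusted p = 0.0311). The 3 genes were named after their values were seen.

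Of 4 regulators of proteasome genes, Nfe2l2, the gene of the stress factor NRF2, rose in 5XFAD at 11 months from 13.5 ± 2.10 to 24.7 ± 0.928 CPM (0.86 ± 0.15, adjusted p = 0.00252). Nfe2l2 also rose with age in 5XFAD (0.78 ± 0.15, edgeR, adjusted p = 0.0109), where 4.84% of all genes rose. The part of microglia in its differences was not tested. Nfe2l1, the gene of NRF1, the factor best known for keeping up proteasome subunit levels, stood at 313 ± 18.6 and 315 ± 14.1 CPM at 6 months and at 307 ± 21.9 and 331 ± 11.9 CPM at 11 months. It passed in no comparison.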

How the data were processed

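RNA sequencing of frontal cortex was analysed in 13 libraries, grouped by title. The submitters' processing notes name STAR 2.7.1, RSEM and the build GRCm38; which annotation and strand setting were used is not given in the sources used here. Expected counts, as deposited by the authors, were rounded, and the authors' TPM values served for levels between genes and for 1 alternative. The authors' deposited FPKM values were not used. Symbols and coordinates came from GENCODE M21, which matched all 55536 identifiers. Genes passing filterByExpr (minimum count 10, total 15) in edgeR 4.0.16 were scaled by TMM and fitted in 1 model of 4 groups, with robust quasi-likelihood tests and Benjamini-Hochberg adjustment over 17483 genes, threshold 0.05 (R 4.3.3). An SE was taken as the size of the log2 fold change over the square root of F. The fit was also run on simulated counts, as a check of the code alone. These had the same spread setting for every gene and no length trend, so that run does not bear on the age calls. Alternatives used DESeq2 1.42.0, limma 3.58.1 on log2(TPM + 1), RLE scaling, other filters, a length offset (lowess span 0.3), sex, the title series, fewer groups and each library left out. The members, the lists and the rule were chosen with earlier results of these data known. By that rule values per library were given for the peptidase and PA28 genes, every member past the threshold, and the member of each class with the smallest p between genotypes at 11 months; the other members were described by ranges. Psme3 and Psme4 were added after their values were seen.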

Additional observations from a re-analysis of the deposited data

Results flagged for a closer look

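In 30 sets of 4 libraries, those of wild type at 6 months, 3 held a value far from the other 3 by Dixon's test at the 95% level, which chance alone gives in about 1 of 20 sets. All 30 sets are the same 4 libraries and so are not independent, and 3 of 30 was not tested against that rate. Psma7, an alpha ring gene, had its highest level in replicate 4, at 104.73 CPM, with the next at 97.3 and the lowest at 96.4 CPM. Psmb10, the inducible peptidase gene, was also highest in replicate 4, at 52.609 CPM, against 46.7 to 47.5 CPM in the others. The ATPase gene Psmc1 was lowest in replicate 1, the library with choroid plexus markers, at 115.2 CPM, against 134 to 136 CPM in the others. Without replicate 4, the age call of Psma7 in wild type was lost, as were those of the other members, and 0.0% of all genes fell. The call of Psma7 was also lost without replicate 1 or replicate 2 of that group, so its loss is not particular to the library with the far value.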

How the results depend on the processing

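No paired analysis was possible because no library shares its title number with another and replicate numbers only follow the order of deposit. The 2 title series at 11 months were instead entered as a term, an alternative chosen after seeing the data. That term was used only for the genotype comparison at 11 months and the interaction. The lower series occurs only at 11 months, so the age comparisons were not adjusted for it. At 6 months and in the interaction, 0 members passed under every alternative run. At 11 months the 1 member higher in 5XFAD became 2 with DESeq2, with no filter or with the title series as a term, 0 with only the 2 groups or with limma on TPM, and 0 to 2 with a library left out. The 10 members lower with age in wild type became 22 with DESeq2, 1 with limma on TPM, 0 with the length offset or with only the 2 groups, and 0 to 25 with a library left out. The 10 in 5XFAD became 24 with only the 2 groups, 6 with no filter, 1 with the length offset or limma on TPM, and 0 to 19 with a library left out. With sex as a term, the age calls of Psma3 and Psmd4 were lost in wild type. Those of Psma6 and Psmc1 were lost in 5XFAD, whose 6-month libraries were all male. Fewer genes or samples enter some of these fits, and otherwise the cause was not tested. Over all 17483 genes, limma on TPM called 856 between genotypes at 11 months, in either direction. With age it called 296 in wild type and 825 in 5XFAD. The share of all genes called with no filter is not given here. The median over the members stayed below 0 in both age comparisons, at -0.40 to -0.17 in wild type and -0.35 to -0.15 in 5XFAD. Sums of CPM were also rescaled to the mean TPM, given here for wild type and 5XFAD in turn. All members came to 4726 and 4934 at 6 months and to 3868 and 4086 at 11 months. Core genes came to 2586 and 2749 at 6 months and to 1974 and 2138 at 11 months. Cap genes came to 1795 and 1850.0, then to 1514 and 1572. Chaperones came to 166 and 167, then to 143 and 145, and activators to 170 and 177, then to 166 and 176. At 0.0817 to 0.737 CPM the depth could not resolve Psma8, and Psmb11 was not tested.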
